A study of Mus musculus with 6 samples.

Results

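The plasminogen activators *Plau* (urokinase, uPA) and *Plat* (tissue-type activator, tPA), the urokinase receptor *Plaur* (uPAR) and the serpins *Serpine2* (protease nexin-1) and *Serpinb2* (plasminogen activator inhibitor type 2) were followed by symbol through 3 states of 1 cell line. They are 5 of the 17428 genes with values. RNA was sequenced from EpH4, a near-normal, non-cancer mouse mammary epithelial line, as untreated epithelial cells (E), as cells kept for 7 days in TGFβ1 (M), and as reverted epithelial cells (RE) that followed the same 7 days with another 4 days in normal medium. By the labels all cultures shared a medium with serum and human insulin, to which TGFβ1 was added for M, and each state had 2 libraries, 6 in all. The labels call the RNA extractions biological replicas without tying a library to a separate culture, so p-values measure the spread between these libraries. As a model, the series is 1 line in culture, without the stromal and blood cells that meet these proteins in a mammary gland.

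Urokinase and tissue-type activator are secreted serine proteases that cut the zymogen plasminogen into plasmin, a broad protease that degrades fibrin and matrix proteins and activates other proteases. The urokinase receptor, a glycolipid-anchored protein, holds urokinase at the cell surface and also binds vitronectin and works with integrins. Serpins inhibit the activators by forming a covalent complex that is then taken up by receptors of the LDL receptor family. In epithelia the system is known for its part in wound closure, invasion and mammary gland remodelling, and TGFβ is known to regulate several of its genes.

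Of the 3 members with appreciable coverage, both activators rose with TGFβ1 and all 3 fell after its removal. *Plau* went from 70.9 to 279 and then to 37.6 ppm (means), *Plat* from 4.06 to 15.1 and then to 7.41 ppm, and *Plaur* was at 44.0, 87.0 and 37.4 ppm. The RE cells thus had less *Plau* than the E cells on average, more *Plat* and nearly as much *Plaur*, although none of these 3 differences from the E cells was called. Both serpins were next to absent from all 3 states. Here ppm is the share of a library's total coverage (sequenced bases summed per gene) that fell on the gene, in ppm, after TMM normalization, a scaling that equates the bulk of genes between libraries. Changes were tested with limma over the 13893 genes that had at least 500 bases, the worth of 10 reads of 50 bases, in at least 2 libraries. To count as a differentially expressed gene (DEG), a gene had to change by more than 1 on the log2 scale, up or down, at an adjusted p (Benjamini-Hochberg) under 0.01. A 2-library group gives little precision, and in bulk RNA fewer cells of a type and less RNA per cell cannot be told apart.

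The libraries held between 35782513 and 47928557 reads' worth of bases. Replicates of the E cells were less alike than the others, with an SD across genes of 0.558 for their log2 difference against 0.318 for the M and 0.309 for the RE cells. The epithelial markers *Krt8*, *Krt18* and *Cdh1* were well covered in every library, from 122 to 323 ppm for *Krt8*, while *Krt19* did not exceed 0.162 ppm. These 4 summed to 1119 to 1381 ppm in E, 1148 to 1175 in M and 663 to 711 in RE, and *Epcam*, also listed, had no values. *Krt18* was at 880 and 611 ppm in E, 589 and 550 in M, and 270 and 312 in RE. *Cdh1* ran from 244 to 327 ppm over all libraries. The 3 basal markers summed to 305 to 374 ppm in E, 711 to 810 in M and 495 to 497 in RE, with *Krt14* at 223 to 755 ppm and *Trp63* at 44.7 to 173 ppm over all libraries and *Krt5* at no more than 0.478 ppm. The 3 leukocyte markers summed to between 5.22 and 9.26 ppm, nearly all of it *Cd68*, with *Ptprc* at no more than 0.0781 ppm. The endothelial marker *Cdh5* was at 0 in both E libraries, at 2.33 and 2.07 ppm in M, and at 0.0423 and 0.0910 in RE. *Pecam1*, the other endothelial marker listed, was at 0.237 and 0.180 ppm in E, 0.264 and 0.429 in M, and 0.307 and 0.318 in RE. The summed fibroblast markers *Pdgfra*, *Pdgfrb* and *Dcn* ran from 84.7 to 113 ppm in E, from 442 to 488 ppm in M and from 766 to 907 ppm in RE. *Pdgfrb* made up most of that sum, while *Dcn* was at 0.496 and 0.301 ppm in E, 0 and 0.0068 in M, and 3.79 and 1.74 in RE. The part of these markers in the results on the plasminogen genes was not tested.

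*Plau*, on chromosome 14, encodes the activator that works at the cell surface. Its coverage was 63.7 and 78.1 ppm in the E libraries, 292 and 267 ppm in the M libraries, and 34.1 and 41.1 ppm in the RE libraries. The M libraries stood above all others and the RE libraries below all others, with no overlap between any 2 states. With 2 libraries against 2, full separation has an exact two-sided permutation p of 0.333. The share of all genes without overlap was not computed. From E to M it rose by 1.98 on the log2 scale (SE 0.16, limma adjusted p = 0.000107), a ratio of means of 3.94. The fall from M to RE was −2.90 (SE 0.16, limma adjusted p = 2.43e-05), so that the M mean was 7.44 times the RE mean. RE was lower than E by a log2 difference of −0.91 (95% interval −1.29 to −0.54, limma adjusted p = 0.00597), which passed the p threshold and not the fold threshold. It became a DEG when libraries were scaled by their totals only (−1.01) or without the first E library (−1.06). Its adjusted p was above 0.01 when only E and RE were fitted (limma adjusted p = 0.0264), without either M library (0.0219 and 0.0218) and without the first (0.0862) or second (0.0327) RE library.

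*Plat*, on chromosome 8, encodes the activator best known for acting on fibrin in the blood. Its coverage was 4.28 and 3.83 ppm in E, 13.2 and 17.0 ppm in M, and 7.10 and 7.73 ppm in RE. The 3 states again did not overlap, with the same limit as for *Plau*, but here RE lay between E and M. *Plat* rose in M by 1.86 on the log2 scale (SE 0.19, limma adjusted p = 0.000335). It fell from M to RE by −1.01 (SE 0.19, limma adjusted p = 0.00693), just past the fold threshold. This second call was lost when libraries were scaled by median-of-ratios size factors (−0.99) or totals (−0.80), with a pseudocount of 1 ppm (−0.93), without the filter on low coverage (limma adjusted p = 0.0132), and when any single M or RE library was left out (−1.19 to −0.82). RE stood above E by 0.86 (95% interval 0.40 to 1.31, limma adjusted p = 0.0155), which was not called.

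*Plaur*, on chromosome 7, encodes the receptor. Its coverage was 38.9 and 49.1 ppm in E, 88.7 and 85.4 ppm in M, and 31.8 and 43.0 ppm in RE. Both M libraries stood above the other 4, and the E and RE libraries overlapped. The E to M difference of 0.99 (95% interval 0.56 to 1.43, limma adjusted p = 0.00492) fell just short of the fold threshold. With libraries scaled by their totals it was 0.69 (limma adjusted p = 0.0187) and passed neither threshold. Leaving out 1 library at a time gave 0.82 to 1.16, called without the second E library (1.16) and not without any other. From M to RE *Plaur* fell by −1.23 (SE 0.19, limma adjusted p = 0.00239), a call that was lost without the first M library (limma adjusted p = 0.0327), the second M library (0.0264) or the first RE library (0.0318). Between E and RE the difference was −0.24 (95% interval −0.68 to 0.20, limma adjusted p = 0.361), an interval that leaves room for changes of up to 0.68 on the log2 scale.

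**Figure D1:**
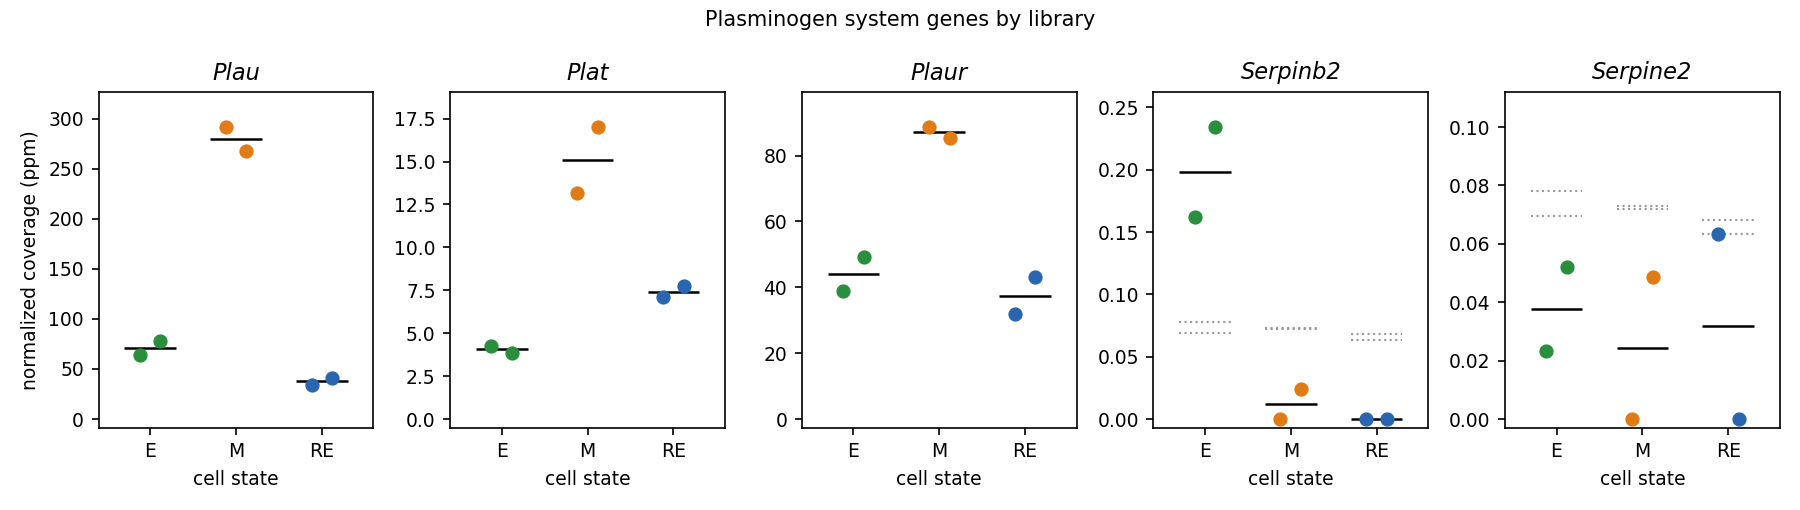
Normalized coverage in ppm (linear axes that differ between panels) of each gene in the 2 libraries of the E (green), M (orange) and RE (blue) cells, with a bar at the group mean. Dotted lines in the serpin panels mark the worth of 3 reads in each library. *Plau* was lowest in RE (34.1 and 41.1), *Plat* lowest in E (4.28 and 3.83), and *Serpine2* did not exceed 3 reads' worth in any library.

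Counted together, 2 of the 3 members tested were called higher in M than in E and 0 lower, where of all genes tested 8.58% were called higher, 8.39% lower and 17.0% in all. From M to RE, 3 of 3 were called lower and 0 higher, against 4.79% lower, 8.08% higher and 12.9% in all. That count was 1 without the first M, the second M or the first RE library. From E to RE, 0 of 3 were called by limma, against 6.20% higher, 3.17% lower and 9.37% in all. All 3 had an unadjusted limma p below 0.05 in E vs. M and M vs. RE, and *Plau* and *Plat* in E vs. RE. The shares of all genes given above follow the stricter DEG rule. The share with an unadjusted p below 0.05 was not computed, so these counts have no background beside them. The median log2 fold change of the 3 was 1.86, −1.23 and −0.24 in E vs. M, M vs. RE and E vs. RE, beside 0.001, −0.017 and 0.008 for all genes tested. These comparisons share libraries, so the fall after removal is not independent of the rise before it. Scaling by library totals moved the median of all genes to −0.29 in E vs. M and 0.18 in M vs. RE, and the *Plau*, *Plat* and *Plaur* differences in E vs. M to 1.68, 1.57 and 0.69.

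**Figure D2:**
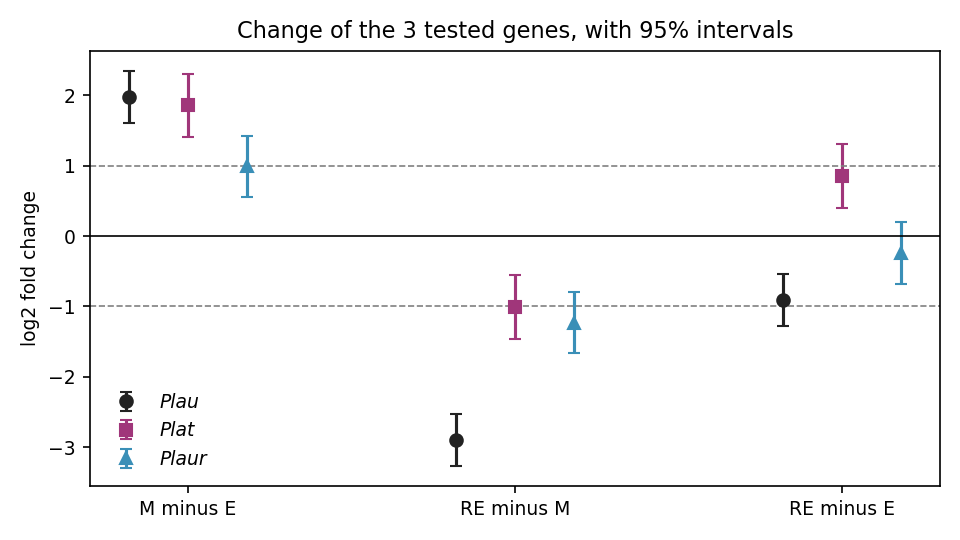
Log2 fold changes (y axis) of *Plau*, *Plat* and *Plaur* in the 3 comparisons, with 95% intervals from limma and dashed lines at the fold threshold of 1. After TGFβ1 removal the *Plau* value against E was −0.91, that of *Plat* 0.86 and that of *Plaur* −0.24.

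*Serpinb2*, on chromosome 1, encodes an inhibitor of urokinase that is mostly retained inside cells. It had 7 and 9 reads' worth of coverage in the E libraries, 0 and 1 in the M libraries and 0 in both RE libraries, or 0.162 and 0.234 ppm in E and 0.0243 ppm in the M library that held any. It lay above the floor of 3 reads' worth in the E cells only among these 6 libraries, and did not reach the filter of 500 bases in any. The E over M ratio was 16.3, with an exact 95% interval from 2.53 to 683 on 16 against 1 reads' worth. With each RE library set at the floor of 3 reads' worth, the E mean was 3.01 times the RE mean. That value takes the E mean as it was, without its counting error, and is not a lower bound. The interval against M covers counting error only. Without the filter on low coverage, *Serpinb2* was called lower in M (−1.41, limma adjusted p = 0.00587) and in RE (−1.57, limma adjusted p = 0.00741) than in E.

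*Serpine2*, on chromosome 1, encodes an inhibitor of thrombin, urokinase and plasmin that is held at the cell surface by heparan sulfate. It had 1 and 2 reads' worth in the E libraries, 0 and 2 in the M libraries and 3 and 0 in the RE libraries. With 8 reads' worth in all and no library above the floor, no difference between states was detectable at this depth, and no fold is given.

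Promoter sequences of 250 bases before the start site were taken from RefSeq (GRCm38.p6, a newer build than the NCBI m37 genome to which the study's reads were mapped) for the 3 of 5 members listed there, *Plaur*, *Serpinb2* and *Serpine2*; *Plau* and *Plat* had no entry. Those of *Plaur* and *Serpinb2* are shown to set the receptor, which is well covered in each state, beside a serpin detected only at trace level. The *Plaur* promoter is at chr7:24462233-24462482 on the plus strand, with capitals at its match to TGACTCA, the AP-1 element. For *Serpinb2*, the first of 2 listed windows is shown, at chr1:107511173-107511422 on the plus strand, with capitals at its match to TATAAA, the TATA element.
Plaur: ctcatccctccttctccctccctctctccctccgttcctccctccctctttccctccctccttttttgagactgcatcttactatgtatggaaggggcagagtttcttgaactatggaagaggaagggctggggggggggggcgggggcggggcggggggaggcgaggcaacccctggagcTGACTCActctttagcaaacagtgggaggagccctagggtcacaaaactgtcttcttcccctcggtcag
Serpinb2: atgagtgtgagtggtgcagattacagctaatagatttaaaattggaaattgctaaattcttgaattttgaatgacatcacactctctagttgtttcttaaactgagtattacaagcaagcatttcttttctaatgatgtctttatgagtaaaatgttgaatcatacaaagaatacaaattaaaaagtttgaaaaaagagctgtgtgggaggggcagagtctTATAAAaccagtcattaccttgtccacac

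The AP-1 match in *Plaur* begins 69 bases before the start, and 4.45% of the 32536 promoters of this length held TGACTCA or its reverse complement TGAGTCA. Matches were sought on both strands. The *Plaur* window also held 3 matches to GGGCGG, the GC box, 1 or more of which were found in 33.0% of promoters. It held no CAGAC, the SMAD half-site, which 42.2% of promoters held. It also held no GTCTAGAC, found in 0.169% of promoters, a palindromic SMAD site that does not contain CAGAC. The *Serpinb2* TATA match begins 29 bases before the start, and 12.3% of promoters held TATAAA or its reverse complement. The serpins differed in base composition, with 32.4% G and C for *Serpinb2* (percentile 2.59 of all promoters) and 78.8% for *Serpine2* (percentile 98.3). The *Serpine2* window held 6 GC box matches. In GENCODE M21, 31 of its 250 bases lie in an annotated exon of *Serpine2*. A match is a description of the letters, not of a bound factor.

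Per kb of exon, which allows levels to be compared between genes, *Plau* and *Plaur* were close in the E cells, at 30.3 ± 4.35 and 29.2 ± 4.79 ppm per kb (SD, n = 2). In the M cells *Plau* was at 119 ± 7.33 and *Plaur* at 57.8 ± 1.54 ppm per kb. In the RE cells the order was turned, with 16 ± 2.11 for *Plau* and 24.8 ± 5.28 ppm per kb for *Plaur*. *Plat* was far below both, at 1.61 ± 0.13 in E, 5.98 ± 1.07 in M and 2.94 ± 0.18 ppm per kb in RE. Ranked by coverage per kb among the 11280 tested genes with a known exon length, *Plau* stood at percentile 80.2 in E, 96.7 in M and 64.9 in RE, *Plaur* at 79.3, 89.5 and 75.8, and *Plat* at 25.5, 43.8 and 31.2.

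Ratios between members within 1 library do not depend on how libraries are scaled. The ratio of *Plau* to *Plaur* coverage per kb was 1.05 and 1.02 in the E libraries, 2.11 and 2.01 in the M libraries, and 0.690 and 0.614 in the RE libraries. The states did not overlap, with the ratio near 1 in E, highest in M and lowest in RE. The ratio of *Plau* to *Plat* was 16 and 22 in E and 23.8 and 16.9 in M, which overlapped, and 5.18 and 5.73 in RE, below all other libraries. The log2 difference of that ratio between RE and E was −1.79. With 2 libraries against 2, an exact two-sided permutation test cannot go below p = 0.333, which was its value for this difference, for the 3 differences in the *Plau* to *Plaur* ratio and for the fall of the *Plau* to *Plat* ratio from M to RE.

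**Figure D3:**
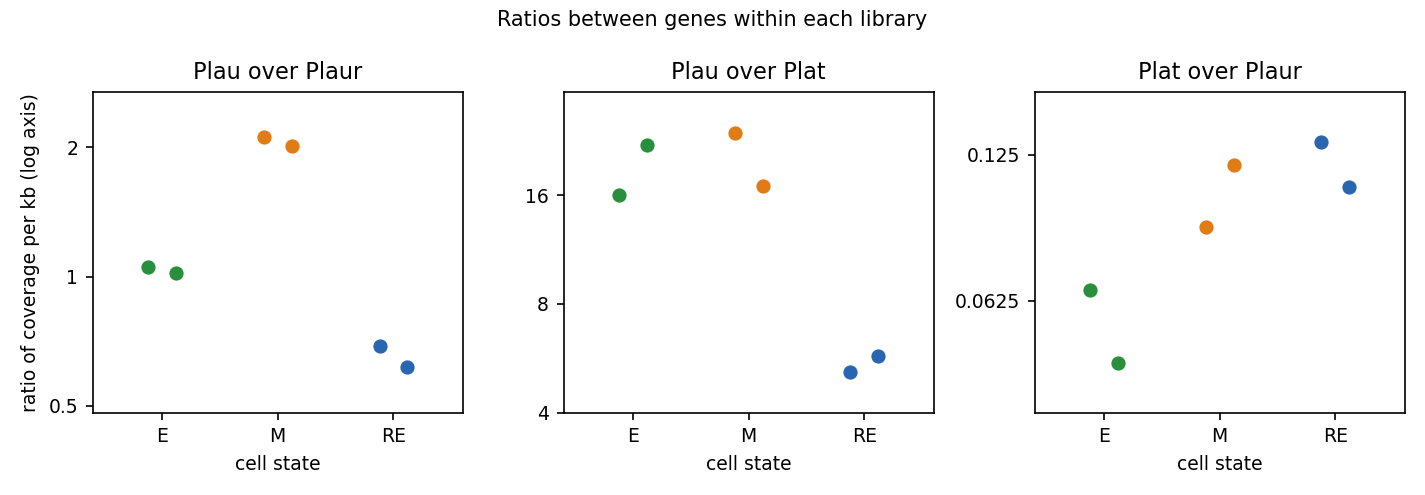
Ratios of coverage per kb between *Plau*, *Plaur* and *Plat* within each library (log axes that differ between panels), for E (green), M (orange) and RE (blue). The *Plau* to *Plat* ratio was between 16 and 23.8 in the E and M libraries and below 6 in both RE libraries (5.18 and 5.73).

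No other annotated gene shared exon bases with a member in GENCODE M21, also on GRCm38, although the span of *Serpinb10* overlaps that of *Serpinb2*. The gene that follows *Plaur* on the same strand, *Cadm4*, a cell adhesion molecule, was at 6.74 ± 0.44 ppm in E, 20.7 ± 1.52 in M and 4.47 ± 0.72 in RE (SD, n = 2). It rose in M (1.61, limma adjusted p = 0.000541) and fell in RE (−2.20, limma adjusted p = 0.000143), as *Plaur* did after removal. The genes on either side of *Plat*, *Ikbkb* and *Ap3m2*, had log2 differences between −0.15 and 0.29 in the 3 comparisons, and none was called. *Serpinb8*, the clade B serpin that follows *Serpinb2*, was covered at 3.67 ± 2.34 ppm in E, 6.82 ± 0.26 in M and 6.25 ± 0.87 in RE, and was not called in any comparison.

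The genes with profiles most like each member were sought among 10095 others with a mean log2 value of at least 2, by the root mean square difference of mean-centred log2 values over the 6 libraries. For *Plau* they were *Il18r1*, a subunit of the interleukin-18 receptor (0.108), *Syt17*, of the synaptotagmin family (0.172), and *Plek2*, a pleckstrin (0.179), beside an SD of 1.21 for the *Plau* profile itself. *Il18r1* went from 92.0 to 376 and then 45.4 ppm. For *Plat* they were *Il4ra*, the interleukin-4 receptor alpha chain (0.10), *Akna* (0.110) and *BC030396* (0.135), and *Il4ra* went from 40.1 to 146 and then 76.4 ppm. For *Plaur* they were *Ehbp1l1* (0.099), *Slc9a5*, a sodium-proton exchanger (0.102), and *2310014H01Rik* (0.108). With 6 libraries, such likeness is a description of the same 3 states.

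A wider list of 93 genes around the system was chosen by role, with earlier results of these data known. It had values for 79, of which 68 were tested. In E vs. M, 20 were called higher and 13 lower in M (48.5% of those tested), 9 were higher and 22 lower in RE than in M (45.6%), and 4 were higher and 7 lower in RE than in E (16.2%), beside 17.0%, 12.9% and 9.37% of all genes tested. Because of how the list was chosen, its shares describe it and do not test it. The shares of all genes also apply to the counts by role that follow. The median log2 fold change of the list was 0.66, −0.41 and −0.09. The E vs. RE count was 4 when only these 2 groups were fitted and 1 without either RE library, and it was 22 without the first E and 6 without either M library. Without the first M library 19 genes of the list were called in E vs. M, and without any single M or RE library 16 to 19 in M vs. RE.

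Of the other direct inhibitors, the 3 reported here were not called in any comparison, and the set is not complete. *Serpini1* (neuroserpin, an inhibitor of tissue-type activator) was at 2.71 ± 1.64, 4.04 ± 0.37 and 3.76 ± 0.72 ppm in E, M and RE (SD, n = 2). *Serpina5* (protein C inhibitor) did not exceed 0.438 ppm in any library, and *Serpinf2* (alpha-2-antiplasmin, the main plasmin inhibitor of blood) did not exceed 0.999 ppm.

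Among the plasminogen-binding proteins, *Plgrkt* (listed as *5033414D02Rik*), a plasminogen receptor of the plasma membrane, fell from 67.1 ± 21.0 ppm in E to 26.3 ± 2.77 in M (−1.32, limma adjusted p = 0.0027) and was at 43.0 ± 1.80 in RE (SD, n = 2). It was 1 of 4 such genes called in E vs. M, and 0 of 4 were called in the other comparisons. *Anxa2*, annexin A2, was high throughout, at 769 ± 93.8, 1095 ± 0.729 and 870 ± 11.8 ppm, and was not called.

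Of 8 genes listed for endocytic clearance of activator-serpin complexes, *Lrpap1* encodes a receptor-associated protein and the others receptors. In E vs. M and in E vs. RE, 1 of the 8 was called higher and 1 lower, beside 17.0% and 9.37% of all genes tested. *Lrp1*, the chief of these receptors, rose from 781 ± 327 ppm in E to 3987 ± 65.2 in M (2.42, limma adjusted p = 0.000527). It was still higher than E in RE, at 2362 ± 235 (1.66, limma adjusted p = 0.00508). *Vldlr* fell from 7.04 ± 4.94 ppm to 0.561 ± 0.0848 in M (−3.24, limma adjusted p = 0.00251) and was still low in RE, at 0.50 ± 0.262 (−3.45, limma adjusted p = 0.00355). *Sorl1*, a sorting receptor, was the 1 of 8 called in M vs. RE, higher in RE (1.37, limma adjusted p = 0.000524).

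The integrins and other partners of uPAR at the cell surface were called higher in M for 5 of 9 tested and lower for 0. *Itga5*, the alpha chain of the fibronectin receptor, rose from 96.0 ± 14.3 to 1101 ± 26.5 ppm (3.53, limma adjusted p = 9.79e-06) and fell to 175 ± 5.80 in RE (−2.65, limma adjusted p = 2.43e-05). *Itgav*, the alpha chain of the vitronectin receptors, rose from 68.6 ± 27.2 to 608 ± 2.16 ppm and was still higher than E in RE, at 203 ± 10.4 (1.62, limma adjusted p = 0.0035). *Itgb3*, its partner chain, had 50 and 0 bases in the E libraries, 21885 and 24279 in M, and 198 and 149 in RE. *Itgb6*, the beta chain of an epithelial integrin, was at 16.5 ± 6.54 ppm in E and 29.8 ± 3.29 in M and fell to 8.67 ± 0.654 in RE (−1.76 from M, limma adjusted p = 0.00227). In M vs. RE 6 of 9 were called lower, and in E vs. RE *Itgav* was the 1 of 9 called. Vitronectin itself (*Vtn*) was not tested, with at most 154 bases in any library.

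The Ly6/uPAR family, small proteins that share the fold of the receptor's domains, had members called in both directions. In E vs. M 1 of 8 tested was called higher, 4 lower and 3 neither, and in M vs. RE 4 were called higher and 1 lower. *Ly6d* fell from 14.8 ± 8.98 ppm in E to 0.111 ± 0.0167 in M and was at 35.5 ± 8.86 in RE (7.38 from M to RE, limma adjusted p = 2.43e-05). *Ly6a* (Sca-1) fell from 79.1 ± 14.2 to 2.49 ± 0.112 ppm and regained 21.9 ± 2.92 in RE, still lower than E (−1.84, limma adjusted p = 0.000819). *Ly6c1* fell from 5.63 ± 1.01 to 0.270 ± 0.0481 ppm in M and rose to 3.31 ± 0.506 in RE, and *Lypd6b* from 6.0 ± 0.289 to 0.642 ± 0.0475 and back to 5.14 ± 0.342. *Lypd1* rose from 3.59 ± 0.311 to 10.2 ± 0.876 ppm in M and fell to 3.65 ± 0.481 in RE.

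Other clade B serpins, which act mostly inside cells, varied widely in level. *Serpinb6a* was at 376 ± 116, 596 ± 48.3 and 268 ± 3.4 ppm in E, M and RE. *Serpinb5* (maspin) was at 50.5 ± 6.74 and 59.7 ± 4.03 ppm in E and M and fell to 22.6 ± 1.54 in RE, lower than E (−1.15, limma adjusted p = 0.00205) and M (−1.40, limma adjusted p = 0.000486). *Serpinb9*, an inhibitor of granzyme B, rose in M (1.96, limma adjusted p = 0.000158) and was still higher than E in RE (1.10, limma adjusted p = 0.00404). *Serpinb9b* was at 0.998 ± 0.0468 and 1.97 ± 0.0578 ppm in E and M and fell to 0.177 ± 0.0899 in RE (−2.02 from E, limma adjusted p = 0.00382). Of 8 tested, 1 was called higher in E vs. M, 3 lower in M vs. RE, and 1 higher and 2 lower in E vs. RE. Among 6 other extracellular serpins tested, *Serpinf1* (pigment epithelium-derived factor) rose from 1.33 ± 0.03 to 24.4 ± 2.47 ppm in M and was at 9.80 ± 0.04 in RE, higher than E (2.80, limma adjusted p = 0.000223). *Serpinc1* (antithrombin) rose in M (1.99, limma adjusted p = 0.00469), as did *Serping1* (the C1 inhibitor, with 1.86 and limma adjusted p = 0.00267), to 1.23 ± 0.398 and 1.76 ± 0.538 ppm. *Serpinh1*, a collagen chaperone, was at 545 ± 17.5 ppm in M and fell to 269 ± 18 in RE (−1.02, limma adjusted p = 0.00528).

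The membrane serine proteases and their Kunitz inhibitors, which include activators of pro-urokinase, were called lower in M for 5 of 8 tested and higher for 0. *Prss8* (prostasin) fell from 24.1 ± 4.87 to 4.73 ± 0.76 ppm (−2.32, limma adjusted p = 0.000151) and rose again to 16.6 ± 0.82 in RE (1.80, limma adjusted p = 0.000585). *Tmprss2* fell from 28.5 ± 1.04 to 3.95 ± 0.91 ppm and was at 16.6 ± 1.01 in RE. *Tmprss4* had no bases in either M library, against 22665 and 5350 bases in E. *Hgfac*, counted among the 8 although its product is a secreted protease, encodes an activator of hepatocyte growth factor. It was at 1.15 ± 0.201 ppm in M and fell to 0.162 ± 0.153 in RE (−2.38, limma adjusted p = 0.0062). *St14* (matriptase), which can activate pro-urokinase, was at 394 ± 6.60, 210 ± 2.33 and 193 ± 2.32 ppm in E, M and RE, and was called lower in RE than in E (−1.03, limma adjusted p = 0.00133).

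Of the coagulation genes at the cell surface, 2 of 5 tested were called higher in M and 1 lower. *Procr*, the endothelial protein C receptor, rose from 7.14 ± 0.28 to 19.6 ± 1.98 ppm in M and fell to 5.10 ± 0.35 in RE (−1.92, limma adjusted p = 0.000179). *F2r*, the thrombin receptor, rose from 2.19 ± 0.217 to 7.02 ± 0.366 ppm and fell to 2.12 ± 0.502. *F3* (tissue factor) was at 9.04 ± 0.106 ppm in M and rose to 19.4 ± 1.57 in RE (1.09, limma adjusted p = 0.00171). *F2rl1*, the protease-activated receptor PAR2, fell from 10.4 ± 3.45 to 2.07 ± 0.25 ppm in M and was still low in RE, at 1.77 ± 0.05 (−2.45 against E, limma adjusted p = 0.00107).

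Genes whose products plasmin activates or cuts were called higher in M for 7 of 9 tested and lower for 1, and 6 of 9 were called lower in RE than in M. In E vs. RE 1 of 9 was called lower and 0 higher. *Fn1* (fibronectin), called higher in M (2.35, limma adjusted p = 0.00184), was not called in M vs. RE (−0.72, limma adjusted p = 0.167). Its RE value stayed 1.63 above E on the log2 scale (limma adjusted p = 0.0135), which was not called. *Mmp9* (gelatinase B) rose from 1.58 ± 0.229 to 916 ± 71.0 ppm and fell to 1.62 ± 0.511 in RE, and *Mmp13* (collagenase-3) from 0.582 ± 0.293 to 15.2 ± 3.98 and back to 0.579 ± 0.111. *Mmp10* (stromelysin-2) rose from 1.44 ± 0.28 to 17.6 ± 2.54 ppm and fell to 0.205 ± 0.0514 in RE, lower than E (−2.33, limma adjusted p = 0.00119). *Hgf*, the hepatocyte growth factor whose precursor urokinase can cut, had 0 and 98 bases in E, 2736 and 2724 in M and none in RE. *Mst1*, a relative of *Hgf*, was the 1 called lower in M than in E (−2.39, limma adjusted p = 0.00513).

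**Figure D4:**
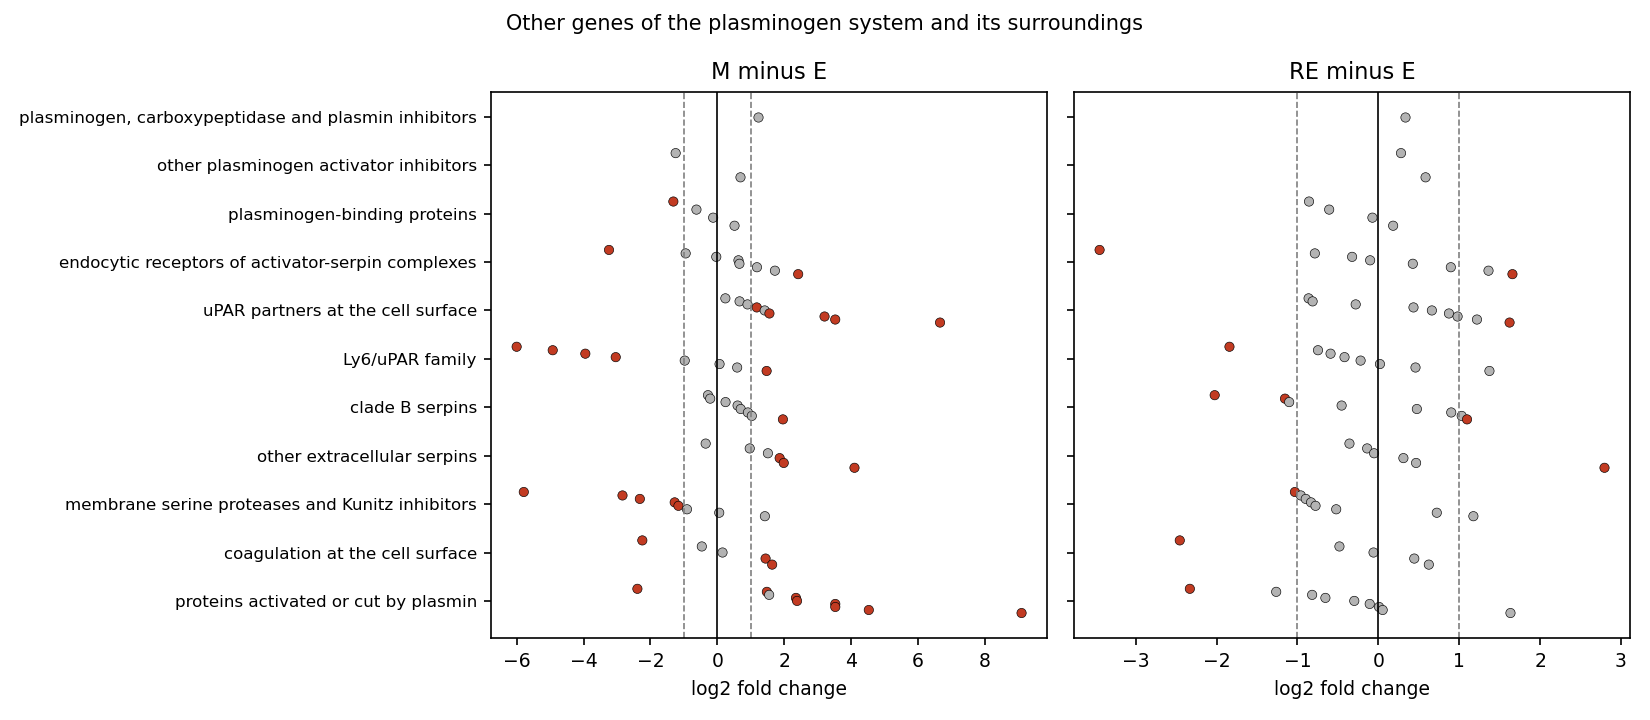
Log2 fold changes (x axes, which differ between panels) of the 68 tested genes of the wider list, by role, for M minus E and RE minus E. Red points are DEGs, grey points are not, and dashed lines mark the fold threshold of 1. DEGs numbered 20 higher and 13 lower in M minus E, and 4 higher and 7 lower in RE minus E.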

How the data were processed

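RNA of E, M and RE cells (2 libraries each) was sequenced on an Illumina Genome Analyzer. The authors mapped unique reads to the NCBI m37 mouse genome with Bowtie and TopHat2 (versions not given) and deposited whole numbers per gene, which are taken here as coverage (signal), bases summed over each of 17428 genes, since 44.8% to 48.4% of values from 1 to 400 are multiples of 50. The summing step and annotation are not given in the sources used here. Libraries were scaled by TMM without weights (30% of log ratios and 5% of levels trimmed at each end, factors 0.871 to 1.12), and log2(ppm + 0.1) was fitted with limma 3.58.1 in R 4.3.3, all 6 libraries, group only, with a trend. The study's edgeR test needs read counts and was not run. The pseudocount understates changes of genes with low coverage.

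The members, lists and rules were chosen with earlier results of these data known. Named genes are the members, in each role the up to 4 DEGs with the largest changes, members' relatives, the nearest neighbours with values, and the 3 most alike profiles. *Anxa2*, *Vtn*, *St14*, *Mst1* and *Fn1* were added after their values were seen. Exon lengths came from GENCODE M21, matched by symbol for 81.2% of genes tested. 1 listed gene is not reported here. Replicate numbers come from the labels, which name no shared batch. Alternatives were other scalings, pseudocounts, filters, thresholds, library weights, a 2-group fit, the replicate block, and leaving out each library.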

Additional observations from a re-analysis of the deposited data

How the results depend on the processing

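Of 306 alternative values for 18 results, 259 kept their side of the threshold (or a count within 1.5 times). Among the fold changes 0 changed direction, and counts have no direction. Other filters, thresholds and library weights, the 2-group fit and the replicate block left each member's fold change as it was. Direction could thus change only with another scaling or pseudocount, or with a library left out. A replicate block left every member's call as it was (limma adjusted p = 0.00984 for *Plat* in M vs. RE), and gave 2431, 1830 and 1284 DEGs in E vs. M, M vs. RE and E vs. RE, beside 2358, 1789 and 1302. By the labels, which name no batch, same-numbered libraries share only a number. Their deviations from the group means had a correlation over genes of 0.27 (E with M), 0.058 (E with RE) and 0.12 (M with RE). With 2 libraries in each group, these values cannot show whether same-numbered libraries shared a batch.

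The *Plat* fall from M to RE was not called with median-of-ratios size factors (−0.99), library totals (−0.80), a pseudocount of 1 ppm (−0.93) or no filter (−1.01). At a fold change of 1.5, *Plaur* was called in E vs. M (0.99) and *Plau* in E vs. RE (−0.91), and with library totals *Plau* was called in E vs. RE (−1.01). The members called in E vs. RE were 0, and 1 with library totals, no filter or a fold change of 1.5. With no filter the 1 was *Serpinb2* (−1.57, limma adjusted p = 0.00741), not *Plau*. The wider list had 4 calls in E vs. RE when only these groups were fitted and 17 at a fold change of 1.5, beside 11, and DEGs of all genes were 525 with the 2-group fit.

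Without 1 library at a time, in E vs. M, M vs. RE and E vs. RE in turn, *Plau* ran from 1.84 to 2.13, −3.03 to −2.76 and −1.06 to −0.77, *Plat* from 1.68 to 2.04, −1.19 to −0.82 and 0.78 to 0.93, and *Plaur* from 0.82 to 1.16, −1.45 to −1.01 and −0.46 to −0.02. Members called ran from 2 to 3, 1 to 3 and 0 to 1, the wider list from 19 to 40, 16 to 36 and 1 to 22, and all genes from 945 to 3347, 683 to 2322 and 44 to 2341. The lowest counts over all genes came without the first M library in E vs. M and without the first RE library in the other comparisons. A library left alone in its group is assumed to vary like the other groups. *Serpine2* and *Serpinb2* had no tested value under the filter, so that no alternative could be set beside one, and their depth of 0 to 9 reads' worth limits what can be seen.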
